A study of Homo sapiens with 6 samples.

Results

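The G2/M and mitotic spindle genes are 56 human genes, from mitotic cyclins and kinases to kinetochore, kinesin and condensin subunits, that were taken by symbol from a table of 58735 genes. All 56 symbols were found, and 55 of them averaged at least 1 FPKM over the libraries and were tested among 11479 such genes. FPKM counts fragments relative to the length of the gene and the depth of the library. Expression was measured by RNA sequencing in HEY, an established human ovarian cancer cell line, in 3 oeCSGALNACT2 libraries from cells transfected with CSGALNACT2 overexpression plasmids and 3 Vector libraries from cells given the empty vector. CSGALNACT2 is a Golgi enzyme of chondroitin sulfate synthesis, and the study asked which genes and pathways change when it is raised. The study describes the overexpression as stable and selected its infected lines with puromycin. No source used here says that replicates are separate cultures, so p-values cover variation among these 6 libraries of 1 cell line, and it may be technical variation.

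A dividing cell enters mitosis when CDK1 bound to cyclin B is switched on, and CDC25 phosphatases and the kinase WEE1 set that switch from opposite sides. Kinetochores then attach chromosomes to a spindle built by kinesins and microtubule-binding proteins, a checkpoint holds anaphase until attachment is complete, and the anaphase-promoting complex (APC/C) destroys cyclin B and securin. Most of these genes are transcribed late in the cell cycle, through the MuvB complex with B-MYB and FOXM1, which acts on cell cycle homology regions (CHR). Such promoters often also hold CCAAT boxes, which the factor NF-Y binds. The share of dividing cells in mitosis or G2 and the RNA made per cell cannot be told apart in these bulk libraries.

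Promoter sequence is shown for 5 members, because the letters that mark late cell cycle promoters can be read in them directly. CCNB1 had the highest level among mitotic entry genes, KIF20A, ANLN and CDCA5 had the smallest p in their role groups, and PTTG1 had the lowest fold change. Each run is the 150 bases before the RefSeq start on GRCh38.p14, 5′ to 3′ on the gene's own strand with the letters searched in capitals, on either strand. CHR letters were TTTGAA and its variant TTTAAA. The other elements were CCAAT, the box of the factor NF-Y, and for E2F factors the string TTCCCGC or, as an alternative, TTGGCGC. The windows lie at chr5:138178962-138179111 for KIF20A, chr5:69167000-69167149 for CCNB1, chr5:160421705-160421854 for PTTG1 and chr7:36389712-36389861 for ANLN, all on the plus strand, and at chr11:65084041-65084190 on the minus strand for CDCA5.
KIF20A: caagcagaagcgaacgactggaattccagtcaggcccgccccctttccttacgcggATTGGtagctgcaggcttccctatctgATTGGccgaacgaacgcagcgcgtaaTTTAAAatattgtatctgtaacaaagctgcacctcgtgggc
CCNB1: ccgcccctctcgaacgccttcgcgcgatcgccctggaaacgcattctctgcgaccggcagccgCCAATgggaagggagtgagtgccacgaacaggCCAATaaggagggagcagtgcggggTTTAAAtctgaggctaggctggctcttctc
PTTG1: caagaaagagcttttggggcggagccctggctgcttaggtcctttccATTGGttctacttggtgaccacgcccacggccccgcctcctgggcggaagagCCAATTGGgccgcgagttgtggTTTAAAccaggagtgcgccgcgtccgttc
ANLN: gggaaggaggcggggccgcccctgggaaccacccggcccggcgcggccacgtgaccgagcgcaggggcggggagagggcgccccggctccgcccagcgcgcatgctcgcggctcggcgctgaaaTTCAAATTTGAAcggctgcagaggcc
CDCA5: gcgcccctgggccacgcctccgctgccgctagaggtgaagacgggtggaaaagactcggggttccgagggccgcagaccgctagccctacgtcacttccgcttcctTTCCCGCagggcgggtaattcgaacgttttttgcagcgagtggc
In KIF20A, CCNB1 and PTTG1 the letters TTTAAA, which read the same on both strands, began 41, 30 and 29 bases before the start, and CCAAT letters lay upstream of them. The PTTG1 window has a CCAAT on each strand that share bases. ANLN held TTTGAA letters on both strands side by side, the nearer beginning 20 bases before the start, and no CCAAT in its window. CDCA5 held E2F letters that began 44 bases before the start, and no CHR or CCAAT letters in its window.

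Across the list, RefSeq promoters (250 bases before to 50 after each start) were matched for 48 of the 56 members, at 63 starts. CHR letters were in 73% of these promoters and in 24% of all 35116 promoters. CCAAT letters were in 66.7% of the members' promoters and in 34.6% of all promoters, and CHR and CCAAT letters occurred together in 52.4% and 9.27%. The E2F letters were in 22.2% of the members' promoters, against 9.23% of all. Of 40 G1/S and replication genes 35 were matched, at 44 starts. Their promoters held CHR letters in 11.4%, CCAAT letters in 61.4% and E2F letters in 59.1%. Among other G2/M and mitosis genes, CHR letters were in 55.7% and CCAAT letters in 64.6% of the promoters. CCAAT letters were thus nearly as frequent in these 2 lists as in the members' promoters. A match is a description of these letters and not a site. The 41 tested members with CHR letters had a median log2 fold change of 0.13, and the 6 matched members without them, CDCA5, KIF22, AURKB, CCNA2, BUB1 and NEK2, had a median of 0.28.

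**Figure D1:**
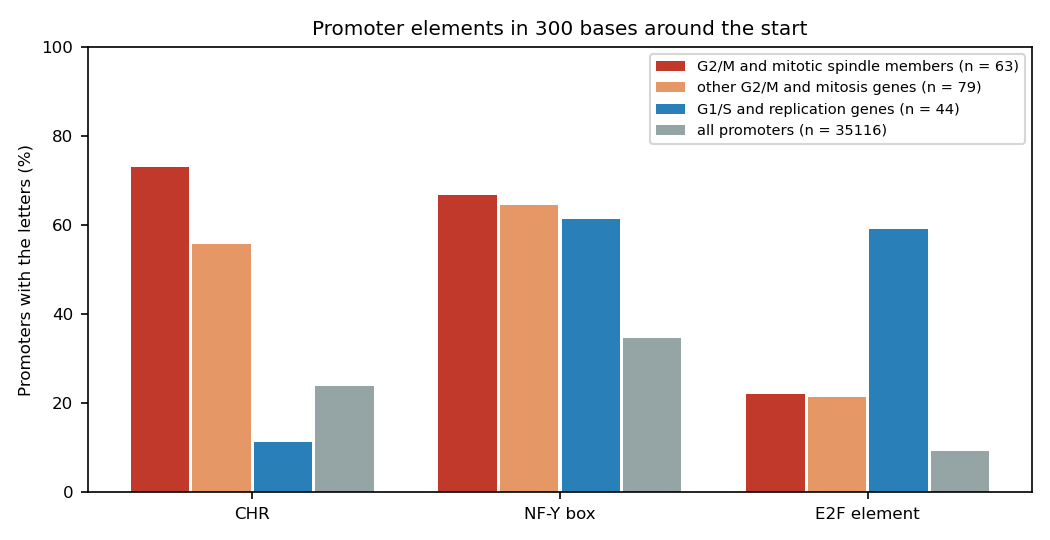
Share of promoters, in percent, that hold CHR, NF-Y box (CCAAT) or E2F letters in a window of 300 bases, for the G2/M and mitotic spindle members, other G2/M genes, G1/S and replication genes and all RefSeq promoters. The members' bar is the tallest for CHR letters, at 73%, and the G1/S bar the tallest for E2F letters, at 59.1%.

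The libraries held 15628834 to 18186682 reads in oeCSGALNACT2 cells and 16619783 to 17776554 reads in Vector cells. CSGALNACT2 was at 535, 453 and 409 FPKM in oeCSGALNACT2 libraries and at 15.3, 8.18 and 8.12 FPKM in Vector libraries, which fits the group descriptions, a log2 fold change of 5.39 (SE 0.27, limma, adjusted p = 0.00302). CSGALNACT1, which the sample titles of the overexpressing cells name, averaged 0.0955 and 0.183 FPKM. Of 12 ovarian carcinoma markers 7 were tested, with PAX8 at 45.4 and 41.9 FPKM, while MUC16 and FOLR1 were at or near 0 in both groups. The summed level of that list was 340 to 587 FPKM in oeCSGALNACT2 and 183 to 337 FPKM in Vector libraries. CD3E and MS4A1, defining lymphocyte genes, were at 0 in every library, and the summed blood list was 6.85 to 9.44 FPKM and 7.33 to 9.64 FPKM, nearly all from NCAM1. Among endothelial markers CDH5 averaged 8.498 and 26.2 FPKM and the other 4 were under 1 FPKM, which gave sums of 6.59 to 10.7 and 20.3 to 31.4 FPKM, and the fibroblast list, at 553 to 755 and 607 to 927 FPKM, was nearly all VIM. The part of these lists in the results on mitotic genes was not tested. In both groups replicate 1 stood apart from replicates 2 and 3: the Pearson correlation of log levels across genes was 0.89 between oeCSGALNACT2 replicates 1 and 2 and 0.99 between replicates 2 and 3, and 0.91 and 0.99 for the same Vector pairs.

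The mitotic programme was highly expressed in both groups. The members summed to 1771, 1491 and 1517 FPKM in oeCSGALNACT2 libraries and to 1706, 1379 and 1340 FPKM in Vector libraries, so that replicate 1 was the highest in each group and the groups overlapped. Apart from PRC1, mean levels ran between 4.57 and 129 FPKM in oeCSGALNACT2 and between 3.85 and 108 FPKM in Vector cells. PRC1, which bundles microtubules of the central spindle, had 6, 15 and 17 reads in oeCSGALNACT2 libraries and 13, 24 and 15 reads in Vector libraries and was not tested. Exons of PRC1 share 57.6% of their bases with AC068831.7 on the same strand, so its reads are uncertain.

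The main limma fit, without replicate number, called 1 member. NCAPH rose and no member fell in limma at an adjusted p under 0.05, beside 0.505% of all tested genes that were higher and 0.845% that were lower. Unadjusted p was under 0.05 for 7 members, all higher in oeCSGALNACT2 cells, beside 17.1% of all tested genes in either direction. With edgeR on reads recovered from the FPKM values 1 member was called higher and 0 lower, beside 0.419% and 0.552% of all genes. The members' median log2 fold change was 0.15, and that of all tested genes was -0.01. When libraries were dropped 1 at a time, the members' median moved in both directions, between 0.0062 and 0.223 over the 6 fits. The low end came from dropping the first oeCSGALNACT2 library and the high end from dropping the oeCSGALNACT2 library numbered 2. With all 6 libraries the log2 fold change was above 0 for 35 of 55 members, beside 49.2% of all genes. In 12 members every oeCSGALNACT2 library was above every Vector library, beside 11.2% of all genes, and in 1 member, UBE2C, every oeCSGALNACT2 library was below, beside 12.8%. The groups overlapped in the other 42 tested members, and exact permutation of a single gene over 3 against 3 libraries cannot give a two-sided p below 0.1.

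These calls changed when the difference between same-numbered libraries was used, although no source used here states that the numbers pair libraries. With replicate number as a block, limma called 22 members higher and 11 lower, but it also called 21.2% of all genes higher and 22.5% lower, so the members' shares must be read against that. Replicates 2 and 3 alone gave 18 members higher and 9 lower, beside 21.1% and 21.4% of all genes. With a trend in GC content removed from each library, an alternative added after the data were seen, 14 members were higher and 0 lower, beside 11.9% and 12.2% of all genes. Both steps together gave 24 higher and 7 lower members, beside 21.1% and 21.5%. Of the 14 members called higher with the GC trend removed, 13 were also called higher with the block: NCAPH, KIF20A, CDCA5, ANLN, BIRC5, FOXM1, KIF4A, ASPM, INCENP, AURKA, SPC25, NCAPG and WEE1. Those lower in both block fits, with and without the GC step, were UBE2C, PTTG1, NUF2, HMMR, NEK2, BUB3 and ECT2. KIF22, CDCA3, CDCA8, MKI67, CDC25B, PLK1 and TPX2 were called higher in both block fits but not in the GC fit without the block. AURKB and CDC20, called higher, and CCNB2, KIF14, CDK1 and NDC80, called lower, passed with the block but not once the GC trend was removed as well.

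**Figure D2:**
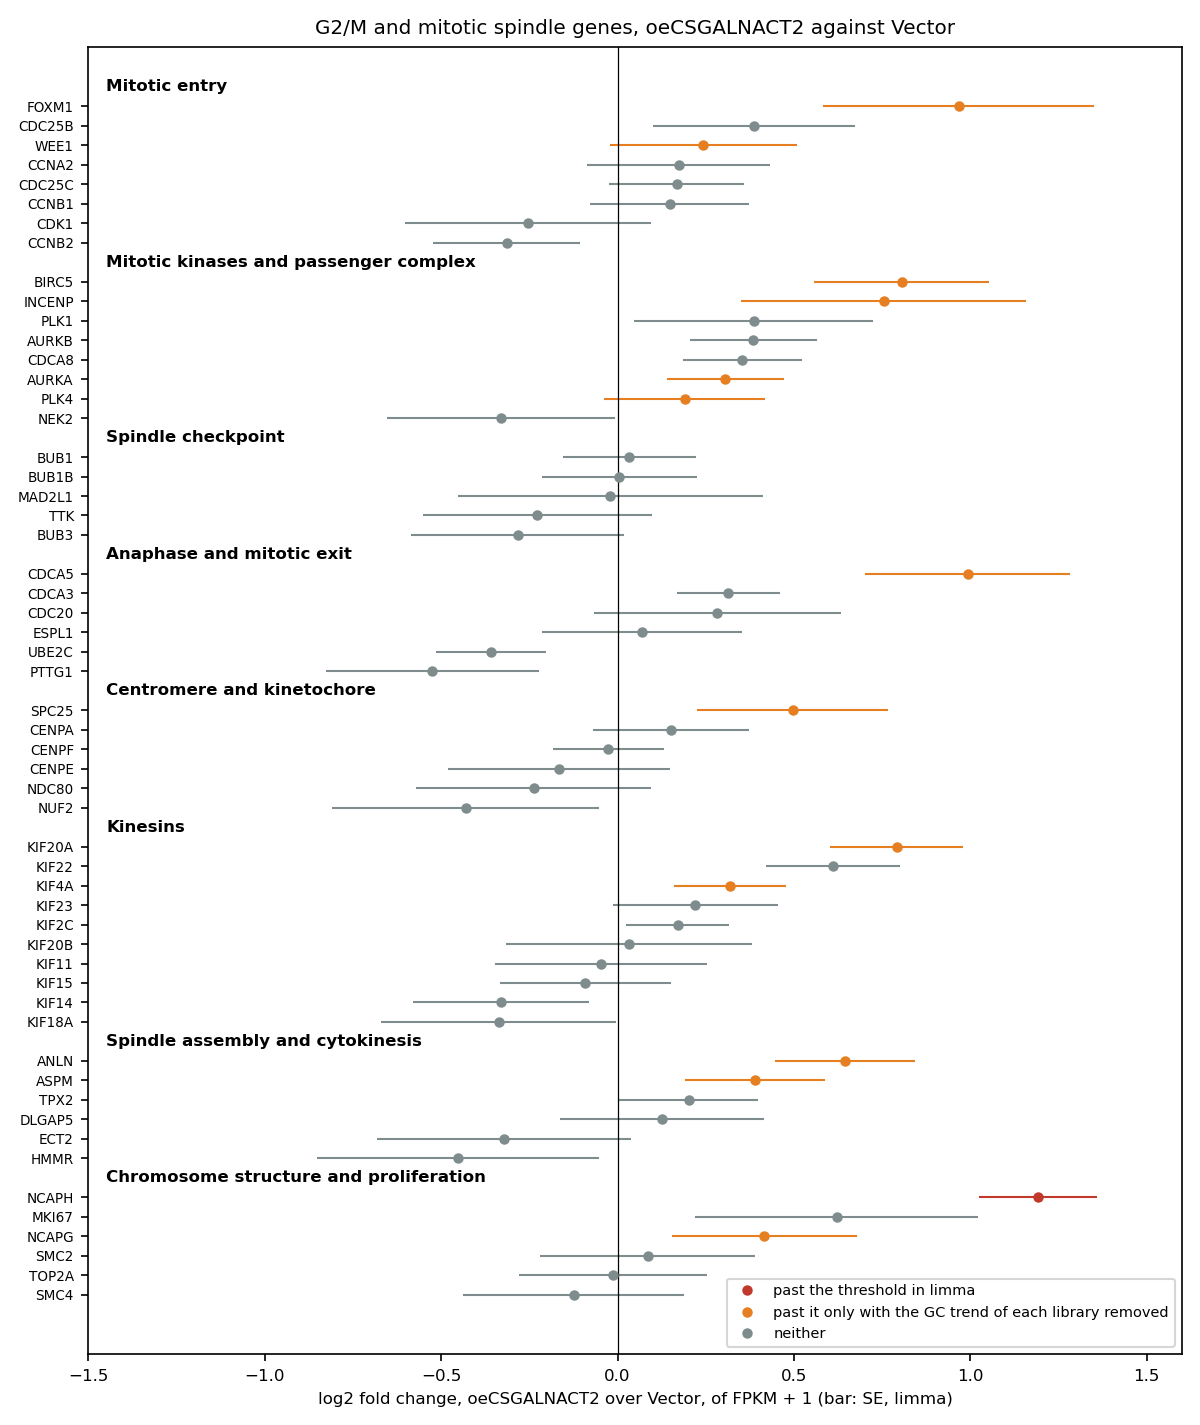
Log2 fold change of FPKM + 1, oeCSGALNACT2 over Vector, for the 55 tested members by role, with the limma SE as the bar. NCAPH, at 1.19, is the only point past the threshold in limma. Another 13 miss it there but pass it with the GC trend removed, and all of these lie to the right of 0.

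Genes of mitotic entry had a median log2 fold change of 0.17, with 6 of 8 above 0, beside 49.2% of all genes. The groups overlapped in all 8, and in 8728 of all 11479 tested genes. CCNB1, the cyclin that activates CDK1, was at 132, 83.6 and 92.3 FPKM in oeCSGALNACT2 libraries and at 106, 84.7 and 83.4 FPKM in Vector libraries. The ranges overlapped, with a log2 fold change of 0.15 (SE 0.23, limma, adjusted p = 0.801). FOXM1, a transcription factor of late cell cycle genes, had 15.97, 35.5 and 34.8 FPKM in oeCSGALNACT2 libraries, against 8.86, 15.9 and 16.7 FPKM in Vector libraries. Replicate 1 was lowest in each group, and in oeCSGALNACT2 it fell inside the Vector range, while each oeCSGALNACT2 library was above its same-numbered Vector library. Its log2 fold change of 0.97 (SE 0.38) had an adjusted p of 0.272 in limma and of 0.00135 with the block. Exons of FOXM1 share 15.9% of their bases with ITFG2 on the other strand, and no source used here states whether reads were counted by strand. CDK1 itself averaged 28.2 ± 11.2 FPKM in oeCSGALNACT2 and 33.5 ± 12.0 FPKM in Vector cells (SD, n = 3 each), CCNB2 averaged 17.1 ± 2.35 and 21.6 ± 4.59 FPKM, and neither passed limma's threshold.

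Mitotic kinases and the chromosomal passenger complex had the highest median of the 8 role groups in the main limma fit, 0.37. With the GC trend removed it was 0.31, below the 0.38 of chromosome structure and proliferation genes. Of the 8 members 7 were above 0, beside 49.2% of all genes. In 4 every oeCSGALNACT2 library was above every Vector library, beside 11.2% of all genes. BIRC5 (survivin), which brings AURKB to centromeres, was at 21.4, 31.1 and 37.1 FPKM in oeCSGALNACT2 libraries and at 13.6, 16.7 and 18.9 FPKM in Vector libraries. Every oeCSGALNACT2 library was above every Vector library. The log2 fold change was 0.81 (SE 0.25), with an adjusted p of 0.179 in limma and of 0.0021 with the block. AURKA, a kinase of centrosomes and spindle poles, had 37.4, 29.7 and 35.2 FPKM in oeCSGALNACT2 libraries, against 28.9, 27.4 and 25.6 FPKM in Vector libraries. These levels did not overlap either, but the gap between the nearest libraries was small, and the log2 fold change was 0.31 (SE 0.16, limma, adjusted p = 0.415, and 0.0308 with the block). The scaffold INCENP averaged 19.9 ± 8.18 and 11.0 ± 3.67 FPKM, and AURKB 22.8 ± 0.687 and 17.4 ± 2.95 FPKM, in oeCSGALNACT2 and Vector cells (SD, n = 3 each). NEK2, a kinase of centrosome separation, was the exception in sign, at a log2 fold change of -0.33.

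Spindle checkpoint genes lay near 0, with a median of -0.02 and a range of -0.28 to 0.03. BUB3, which carries checkpoint kinases to kinetochores, had both the smallest p and the highest level of the 5. It was at 41.1, 23.6 and 24.0 FPKM in oeCSGALNACT2 libraries and at 48.0, 30.8 and 28.9 FPKM in Vector libraries. Replicate 1 was high in both groups and the groups overlapped, with a log2 fold change of -0.28 (SE 0.30, limma, adjusted p = 0.703, and 0.0158 with the block). The other 4, TTK, MAD2L1, BUB1 and BUB1B, passed neither in limma nor with the block.

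Genes of anaphase and mitotic exit had values on both sides of 0, with a median of 0.18 and a range of -0.53 to 0.99. CDCA5 (sororin), which protects cohesin on replicated chromosomes, was at 19.1, 27.1 and 30.0 FPKM in oeCSGALNACT2 libraries and at 8.07, 14.1 and 15.2 FPKM in Vector libraries. All oeCSGALNACT2 libraries were above all Vector libraries, and the log2 fold change was 0.99 (SE 0.29, limma, adjusted p = 0.159, and 0.000971 with the block). PTTG1 (securin), the inhibitor of separase, had the lowest fold change of the list, at 44.8, 27.2 and 27.5 FPKM in oeCSGALNACT2 libraries and at 66.5, 40.4 and 38.4 FPKM in Vector libraries. Replicate 1 was high in both groups and its oeCSGALNACT2 level overlapped the Vector range, although each oeCSGALNACT2 library was below its same-numbered Vector library. The log2 fold change of PTTG1 was -0.53 (SE 0.30, limma, adjusted p = 0.445, and 0.00239 with the block).

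CDC20, the activator of the APC/C at anaphase, had the highest mean level of all 56 genes. It was at 88.0, 148 and 151 FPKM in oeCSGALNACT2 libraries and at 65.8, 122 and 135 FPKM in Vector libraries, with replicate 1 low in both groups and overlapping ranges. Its log2 fold change was 0.28 (SE 0.35, limma, adjusted p = 0.749, and 0.0244 with the block). UBE2C, the ubiquitin-conjugating enzyme of the APC/C, was at 83.7, 67.9 and 79.1 FPKM in oeCSGALNACT2 libraries and at 96.1, 98.6 and 101 FPKM in Vector libraries. No other member had every oeCSGALNACT2 library below every Vector library, and its log2 fold change was -0.36 (SE 0.16, limma, adjusted p = 0.313, and 0.0177 with the block).

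Centromere and kinetochore genes had the lowest median of the role groups, -0.10. All 6 overlapped between the groups, as did 8728 of all 11479 tested genes. CENPF, a protein of the outer kinetochore, was at 28.7, 30.3 and 27.2 FPKM in oeCSGALNACT2 libraries and at 32.4, 28.97 and 26.7 FPKM in Vector libraries. Levels were nearly equal, with a log2 fold change of -0.03 (SE 0.16, limma, adjusted p = 0.962) whose sign was positive in 8 of 20 other settings. SPC25, a subunit of the NDC80 complex that binds microtubules, had 12.5, 5.97 and 7.51 FPKM in oeCSGALNACT2 libraries, against 6.44, 4.93 and 5.46 FPKM in Vector libraries. The oeCSGALNACT2 replicate 1 was far above the rest and replicate 2 lay inside the Vector range, with a log2 fold change of 0.50 (SE 0.27, limma, adjusted p = 0.419, and 0.0311 with the block). NDC80 and NUF2, partners of SPC25 in the same complex, had log2 fold changes of -0.24 and -0.43.

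The kinesins, motors that move or take apart microtubules, had a median of 0.10, with 6 of 10 above 0, beside 49.2% of all genes. In 4 (KIF20A, KIF22, KIF4A and KIF2C) every oeCSGALNACT2 library was above every Vector library, beside 11.2% of all genes. KIF20A (MKLP2), which carries the passenger complex to the central spindle, was at 21.4, 25.5 and 23.7 FPKM in oeCSGALNACT2 libraries and at 10.6, 14.7 and 14.6 FPKM in Vector libraries. The groups were well apart, and the log2 fold change of 0.79 (SE 0.19) had an adjusted p of 0.105 in limma and of 0.00193 with the block. KIF2C, a microtubule depolymerase of centromeres, had 33.3, 34.2 and 35.8 FPKM in oeCSGALNACT2 libraries, against 29.4, 30.3 and 31.8 FPKM in Vector libraries. Its groups did not overlap, but the difference was small, a log2 fold change of 0.17 (SE 0.15, limma, adjusted p = 0.624). KIF11, the motor that pushes spindle poles apart, averaged 23.3 ± 6.28 FPKM in oeCSGALNACT2 and 24.5 ± 8.84 FPKM in Vector cells (SD, n = 3 each).

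Among spindle assembly and cytokinesis genes the median was 0.16, with 4 of 6 tested above 0, beside 49.2% of all genes. ANLN (anillin), which organises the contractile ring, was at 71.1, 57.7 and 54.4 FPKM in oeCSGALNACT2 libraries and at 46.3, 36.8 and 33.4 FPKM in Vector libraries. No library of the groups overlapped, and the log2 fold change was 0.64 (SE 0.20, limma, adjusted p = 0.178, and 0.00138 with the block). TPX2, which activates AURKA on the spindle, had 141, 109 and 106 FPKM in oeCSGALNACT2 libraries, against 122, 95.9 and 91.8 FPKM in Vector libraries. The Vector replicate 1 was above oeCSGALNACT2 replicates 2 and 3, so the groups overlapped, with a log2 fold change of 0.20 (SE 0.20, limma, adjusted p = 0.674, and 0.0298 with the block). HMMR and ECT2, a spindle protein and the exchange factor that starts cytokinesis, had log2 fold changes of -0.45 and -0.32.

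Chromosome structure and proliferation genes held the only call in limma. NCAPH, the kleisin subunit of condensin I, which compacts mitotic chromosomes, was at 18.2, 16.6 and 16.4 FPKM in oeCSGALNACT2 libraries and at 5.75, 7.49 and 7.61 FPKM in Vector libraries. The groups were far apart, and NCAPH rose by a log2 fold change of 1.19 (SE 0.17, limma, adjusted p = 0.0345), with an adjusted p of 0.00186 with the block and of 0.0454 in edgeR. Leaving out any 1 of the 6 libraries kept the log2 fold change between 1.08 and 1.25 but ended the call, at adjusted p between 0.0535 and 0.216. NCAPG, another condensin I subunit, averaged 18.7 ± 5.02 FPKM in oeCSGALNACT2 and 13.7 ± 3.54 FPKM in Vector cells (SD, n = 3 each), and 33.1% of its exon bases are shared with LCORL on the other strand. SMC2 and SMC4, the ATPases of condensin, had log2 fold changes of 0.09 and -0.12. Of the exon bases of SMC4, 25.6% are shared with IFT80 and TRIM59 on the other strand.

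TOP2A, the topoisomerase that untangles sister chromatids, was at 113, 81.5 and 74.2 FPKM in oeCSGALNACT2 libraries and at 122, 78.4 and 73.9 FPKM in Vector libraries. The groups covered nearly the same range, with a log2 fold change of -0.01 (SE 0.27, limma, adjusted p = 0.989) whose sign was positive in 9 of 20 other settings. MKI67, the Ki-67 proliferation antigen that coats mitotic chromosomes, averaged 36.2 ± 13.9 FPKM in oeCSGALNACT2 and 22.9 ± 7.97 FPKM in Vector cells (SD, n = 3 each), with an adjusted p of 0.501 in limma and of 0.00233 with the block.

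**Figure D3:**
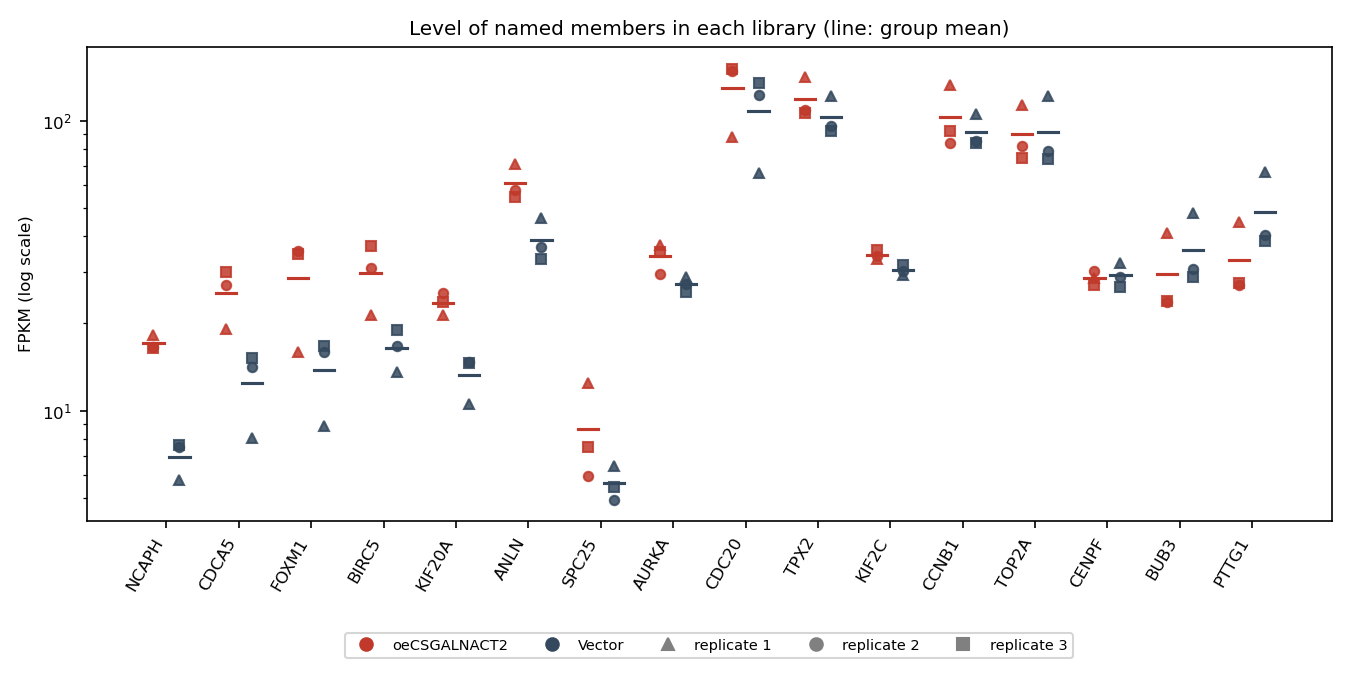
FPKM on a log axis in each library for 16 named members, with oeCSGALNACT2 left of Vector in each pair and a line at each group mean. NCAPH, at 18.2, 16.6 and 16.4 against 5.75, 7.49 and 7.61 FPKM, shows the widest gap, and replicate 1 stands apart from replicates 2 and 3 in many genes of both groups.

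The shift of replicate 1 followed the GC content of the members. Of the 55 members, 37 were higher in replicate 1 than in the mean of replicates 2 and 3 in both groups, and these had a GC content of 34.2% to 49.2% in their longest transcript. A further 14 were lower in replicate 1 in both groups, with a GC content of 48.3% to 59.6%. Across the 55 members the Spearman correlation of GC content with the shift was -0.77 in oeCSGALNACT2 and -0.87 in Vector libraries, and it was -0.79 and -0.83 across all tested genes, which share these libraries. GC content also correlated with the members' log2 fold change, at 0.52, and at 0.35 with the trend removed, while over all genes the values were 0.21 and -0.02. The 14 members low in replicate 1 had a median log2 fold change of 0.50, and the 37 members high in replicate 1 had one of -0.01. With the trend removed the median of the 55 members was 0.21, and that of all genes was 0.00107. The part of GC content in the differences between the groups was not tested.

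**Figure D4:**
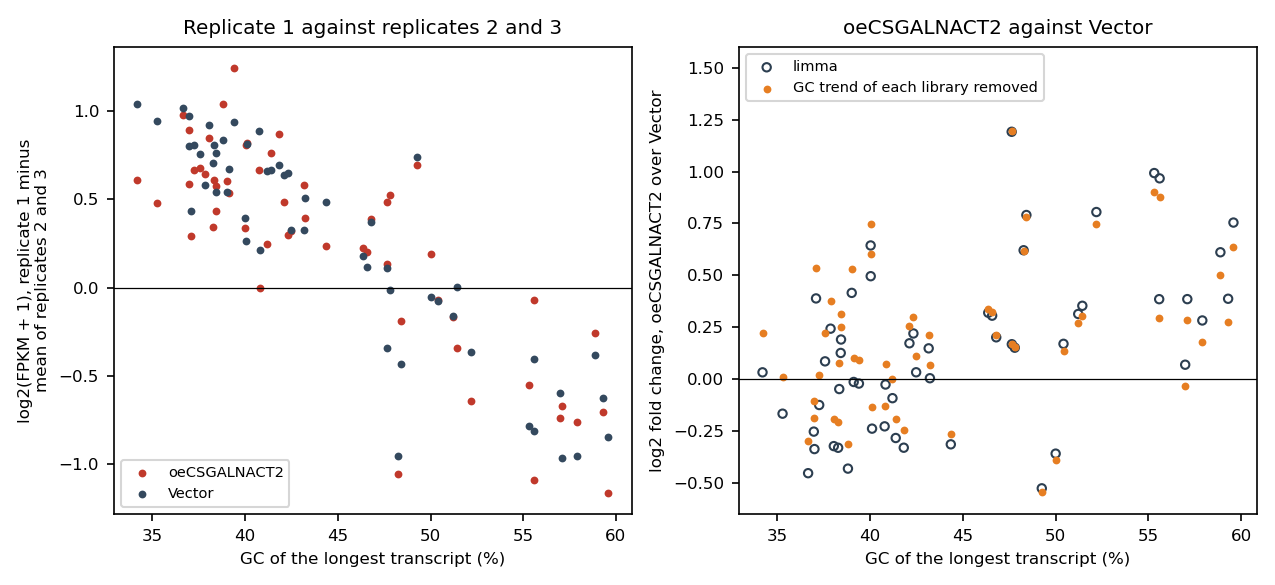
On the left, the shift of replicate 1 from the mean of replicates 2 and 3, in log2(FPKM + 1), against the GC content in percent of each tested member, which falls with GC in both groups (Spearman -0.77 in oeCSGALNACT2 and -0.87 in Vector). On the right, the log2 fold change of oeCSGALNACT2 over Vector against GC content from limma and with the GC trend removed, which correlate at 0.52 and 0.35.

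Other lists of the cell cycle were set beside the members. Of 76 other tested G2/M and mitosis genes 2 rose and 0 fell in limma, beside 0.505% and 0.845% of all genes. In edgeR 2 rose and 0 fell, beside 0.419% and 0.552%. Their median log2 fold change was 0.29, and 24 had an unadjusted limma p under 0.05, beside 17.1% of all genes. The risers in limma were CDC25A, a phosphatase of CDK1 and CDK2, and LMNB1, a lamin of the nuclear envelope. CDC25A was at 9.54 and 2.81 FPKM, and LMNB1 at 42.3 and 18.3 FPKM, in oeCSGALNACT2 and Vector cells. The study used CDC25A, by qRT-PCR, as a proliferation marker in HEY cells and reported similar growth of overexpressing and control cells. It cited those CDC25A measurements for that statement, whereas CDC25A RNA was higher in the oeCSGALNACT2 libraries here. The reason was not tested. Of 39 tested G1/S and replication genes 10 rose and 0 fell in limma, beside 0.505% and 0.845% of all genes, with a median of 0.83. Among these, FEN1, the flap endonuclease of Okazaki fragments, averaged 57.5 and 11.8 FPKM, and MCM4, a subunit of the replicative helicase, averaged 76.7 and 22.9 FPKM. In 29 of the 39 every oeCSGALNACT2 library was above every Vector library. Among the 55 members this was so in 12, with 1 the other way, beside 11.2% and 12.8% of all genes. Of 13 tested G1 arrest and quiescence genes 0 rose and 2 fell in limma, beside 0.505% and 0.845% of all genes, with a median of -0.89. Those that fell were GADD45A, at 43.7 and 153 FPKM, and CDKN1C, at 1.95 and 19.1 FPKM. With the block, 40 rose and 5 fell among the other G2/M genes, 33 and 0 among the G1/S genes and 3 and 9 among the G1 arrest genes, beside 21.2% and 22.5% of all genes. The difference between these lists and the members was not tested.

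In 3 further lists, MuvB, B-Myb and E2F regulators, APC/C subunits and cohesin genes, no gene passed the threshold in the main limma fit. None passed it in edgeR without the block. An unadjusted limma p was under 0.05 for 5 MuvB, B-Myb and E2F regulators, 1 APC/C subunit and 1 cohesin gene, beside 17.1% of all genes. With the block, 4 rose and 4 fell among the MuvB, B-Myb and E2F regulators, 3 and 1 among APC/C subunits and 2 and 4 among cohesin genes, beside 21.2% and 22.5% of all genes. With the GC trend removed, those counts were 4 and 3, 3 and 0, and 1 and 1, beside 11.9% and 12.2% of all genes. MuvB, B-Myb and E2F regulators (16 tested) had a median of 0.02, with TFDP1, the partner of E2F factors, at 0.87 (limma, adjusted p = 0.0513) and E2F5 at -0.68 (limma, adjusted p = 0.2). MYBL2 (B-Myb) averaged 36.9 and 20.5 FPKM in oeCSGALNACT2 and Vector cells, and the groups overlapped. Its log2 fold change was 0.78 (SE 0.40, limma, adjusted p = 0.39, 0.00291 with the block and 0.00673 with the GC trend removed). APC/C subunits (15 tested) had a median of 0.11, with 10 above 0 and 5 below, beside 49.2% of all genes above 0. The 2 with the smallest p, ANAPC7 and ANAPC2, were at 0.67 and 0.79. Cohesin genes (12 tested), whose rings CDCA5 protects and separase opens, had a median of -0.13, with 4 above 0 and 8 below. The acetyltransferase ESCO2 was at 0.76 and the core subunit SMC1A at 0.34.

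**Figure D5:**
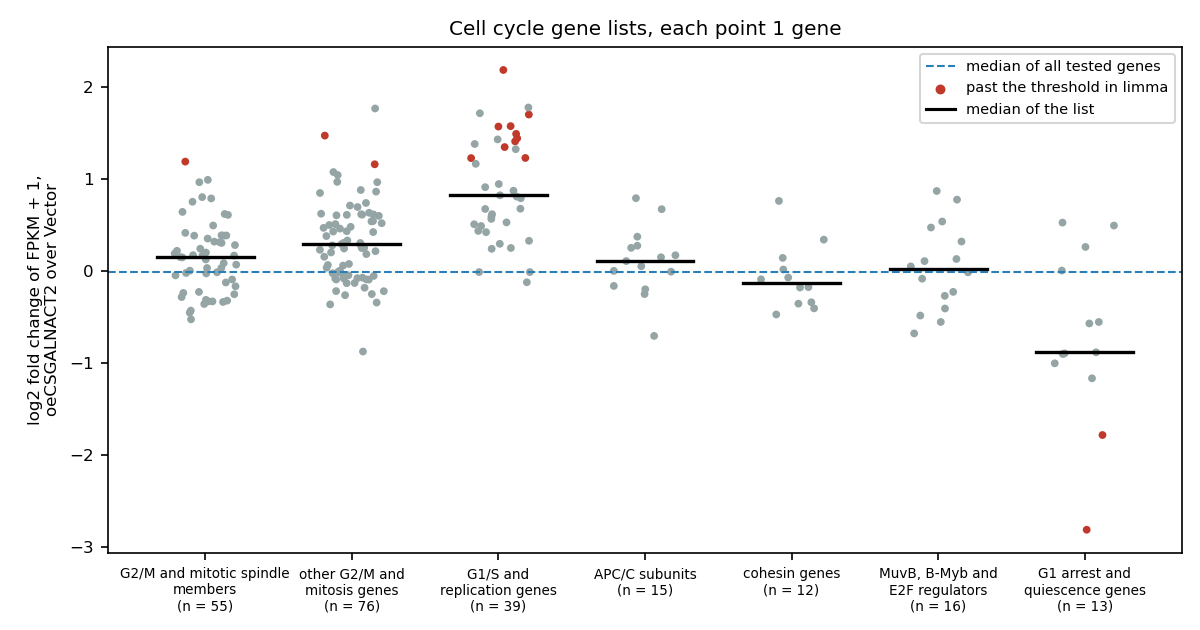
Log2 fold change of FPKM + 1, oeCSGALNACT2 over Vector, for each tested gene of 7 lists, with a bar at each list's median and a dashed line at the median of all tested genes. The members centre at 0.15, the G1/S and replication genes at 0.83 and the G1 arrest genes at -0.89.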

How the data were processed

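The deposited FPKM values, which the authors made from HEY libraries prepared with a SMARTER mRNA-Seq kit and sequenced by Novogene, were the base of the analysis. No source used here names the aligner or counter. The labels name genome build mm10, but all 58735 genes lie at the human GENCODE 29 positions on GRCh38. The deposited read counts were at hand for 1310 genes. FPKM times gene length gave whole reads, within 0.01 read, for 100% of values in each library and equalled those counts, and these recovered reads went into edgeR 4.0.16 and DESeq2 1.42.0 as alternatives. Limma 3.58.1 (R 4.3.3, trended eBayes) compared log2(FPKM + 1) of 3 oeCSGALNACT2 with 3 Vector libraries, for genes with a mean of at least 1 FPKM, two-sided, with Benjamini-Hochberg adjustment over all 11479 genes and a threshold of 0.05. A fold change on this scale understates that of low genes. Deviations from group means correlated between same-numbered libraries at 0.81, 0.63 and 0.69 across genes, so replicate number was used as a block beside the main fit. Crossed replicates 2 and 3 also correlated, at 0.68 and 0.59, so these values set replicate 1 apart but do not show how replicates 2 and 3 pair. The GC trend was a lowess curve (span 0.3) on the GC content of each gene's longest transcript. Printed were, in each role group, the member with the smallest p and the one with the highest level, those past the threshold, the largest rise and fall, and in other lists the genes past the threshold (at most 4) or the 2 with the smallest p. UBE2C, MYBL2 and members given by mean or fold change alone were added after their values were seen. Members and gene lists were chosen with earlier results of these data known. Scripts were tested on simulated data. Counting error applies at low reads, as in PRC1.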

Additional observations from a re-analysis of the deposited data

How the results depend on the processing

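The counts over all genes and members, the members' median, CSGALNACT2 and the members with values in each library were computed under 20 other settings, 2 of them, the GC steps, chosen after the data were seen. The fit to the deposited counts gave no value for genes outside that table, for the median or for the counts over all genes. CSGALNACT2 kept its call in all 20, with a log2 fold change of 5.24 to 5.66 when 1 library was left out. NCAPH kept its direction in every setting that tested it and lost its call when any library was left out and when all genes with FPKM above 0 were tested.

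Over all genes, 58 were higher and 97 lower in limma. These counts were 11 and 20 with all genes above 0 tested, 2439 and 2578 with the replicate block, 2416 and 2447 with replicates 2 and 3 only, 1368 and 1400 with the GC trend removed and 2420 and 2470 with both. They were 138 and 227 in edgeR without a filter, 3179 and 2879 in edgeR with the block and 313 and 418 in DESeq2. Leaving out 1 library gave 1 to 73 higher and 4 to 97 lower.

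Members called higher, 1 in limma, were 0 with all genes above 0 tested and in edgeR on the deposited counts, which hold 12 members and not NCAPH. They were 22 with the block, 18 with replicates 2 and 3 only, 24 in edgeR with the block, 14 with the GC trend removed and 24 with both, and 0 in each fit that left out 1 library. Members called lower, 0 in limma, were 11 with the block, 9 with replicates 2 and 3 only, 12 in edgeR with the block and 7 with the GC trend and the block.

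Among the members named with values in each library, signs turned in CENPF, TOP2A, CCNB1 and CDC20. CENPF was at 0.0443 with replicates 2 and 3 only, 0.0028 in edgeR, 0.0062 in edgeR with the block, 0.0215 on the deposited counts and 0.0709 with the GC trend removed, with or without the block. TOP2A was at 0.0304, 0.0052, 0.0191, 0.0242 and 0.102 in those settings. Leaving out 1 library gave CENPF -0.0899 to 0.0446, TOP2A -0.193 to 0.21, CCNB1 -0.0464 to 0.281 and CDC20 -0.0361 to 0.536. Without changing sign, BUB3 ran from -0.538 to -0.061, PTTG1 from -0.757 to -0.279, SPC25 from 0.227 to 0.703 and TPX2 from 0.0719 to 0.325, with oeCSGALNACT2 or Vector replicate 1 left out at the ends of each range but the upper end of SPC25, where it was oeCSGALNACT2 replicate 2. The cause of these changes was not tested, and 3 libraries a group limit every call.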
